A study of Mus musculus with 6 samples.

Results

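The 7 genes described here control where and how far blood clotting runs at a cell surface, and how cells sense the clotting proteases. They are Procr (endothelial protein C receptor), Thbd (thrombomodulin), F3 (tissue factor), Tfpi and Tfpi2 (tissue factor pathway inhibitors) and the protease-activated receptors F2r and F2rl1. They were taken by gene symbol from a table of 38896 genes, as a set in which some genes differed between the groups. The comparison of DSS with control chose them, so their values in it are a description and carry no test. The cells were colonic fibroblasts, the connective-tissue cells of the bowel wall, taken at 6 weeks of age from the distal part of the mouse colon. They were grown for 2 passages, and conditioned medium of either a control or an inflammatory kind was then given for 24 h. The mice were 3, with the numbers 1716, 1717 and 1718, and every mouse gave a culture to both groups, so n = 3 in each group and the groups share their animals. The labels name the groups in a field called genotype, where DSS usually stands for dextran sulfate sodium, a chemical that causes colitis. Here the DSS libraries are read as those of the inflammatory medium, which the labels do not state outright. The sources used here do not give how that medium was made, nor the strain and sex of the mice.

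Clotting outside the blood vessel starts when tissue factor, a membrane protein of fibroblasts and other cells of the vessel surroundings, binds factor VII. The resulting proteases make thrombin, which cuts fibrinogen to fibrin and also cuts and so switches on the receptor encoded by F2r. Thrombin held by thrombomodulin instead activates protein C, which the protein C receptor presents to it, and activated protein C shuts clotting down. The protease-activated receptors carry signals of such proteases into fibroblasts and many other cells.

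Depth was 17293680 to 19482938 estimated counts per library, and levels are counts scaled to a common library total (CPM) with TMM factors, given as mean ± SD. All 10 fibroblast markers looked at were present, with a summed level of 37360 to 44070 CPM in control and 20130 to 24720 CPM in DSS. Of these 10, 1 rose (Pdgfra) and 5 fell. Macrophage markers were also present, all 10 of 10, at 2190 to 3111 CPM in control and 1308 to 2178 CPM in DSS, and 1 rose and 4 fell. Of 11 epithelial markers 2 reached a mean of 1 CPM, and Epcam stood at 0.0543 CPM in control against 0.0379 CPM in DSS. Endothelial markers summed to 25.2 to 35.8 CPM in control and 28.6 to 39.7 CPM in DSS, with 9 of 14 at a mean of 1 CPM or more. Smooth muscle and pericyte markers summed to 1460 to 1564 CPM in control and 1018 to 1212 CPM in DSS. In RNA of whole cultures, fewer cells of a type and less RNA per cell cannot be told apart.

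The genes lie on 4 chromosomes of the GRCm38 build, with 3 on chromosome 2. Procr (NCBI Gene 19124) is a gene of 4 exons on the plus strand at 155751125 to 155755478, and Thbd (NCBI Gene 21824), a gene of 1 exon, lies on the minus strand at 148404471 to 148408188. Tfpi (NCBI Gene 21788) spans 43.9 kb of the minus strand of the same chromosome, from 84432855 to 84476775. F3 (NCBI Gene 14066) is on the plus strand of chromosome 3 at 121723537 to 121735052. Tfpi2 (NCBI Gene 21789) is on the minus strand of chromosome 6 at 3962589 to 3988978. The receptor genes F2r (NCBI Gene 14062, 95601780 to 95618466) and F2rl1 (NCBI Gene 14063, 95511718 to 95525240) are next to each other on the minus strand of chromosome 13, each with 2 exons, and 76.5 kb apart.

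RefSeq promoter sequences (GRCm38.p6) were at hand for 5 of the 7 genes, Procr, F3, Tfpi, Tfpi2 and F2r. The 4 shown are those that hold the AP-1 letters TGANTCA, read on both strands, where AP-1 is the Fos and Jun transcription factor of stress and growth signals. They stand here because their genes went different ways: Procr was higher in DSS, Tfpi2 was lower, and F3 and F2r lay close to control. Each is printed on the strand of its gene, 5′ to 3′. It ends before the first annotated exon of the gene or, for Tfpi2, before that of the counted transcript. Capitals mark TGANTCA and, where it overlaps, TGACNNNGC, the letters of the antioxidant response element (ARE). The windows are chr2:155750967-155751116 on the plus strand for Procr and chr3:121723287-121723536 on the plus strand for F3. Those of Tfpi2 and F2r are chr6:3968377-3968625 and chr13:95618488-95618716, both on the minus strand. The Tfpi2 window is the one before the start site that its counted transcript uses. It lies inside the gene as placed above, and the other promoter windows of Tfpi2 lie further upstream.
Procr: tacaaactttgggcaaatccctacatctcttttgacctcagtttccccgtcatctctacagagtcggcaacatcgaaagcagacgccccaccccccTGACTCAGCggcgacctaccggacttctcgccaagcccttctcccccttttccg
F3: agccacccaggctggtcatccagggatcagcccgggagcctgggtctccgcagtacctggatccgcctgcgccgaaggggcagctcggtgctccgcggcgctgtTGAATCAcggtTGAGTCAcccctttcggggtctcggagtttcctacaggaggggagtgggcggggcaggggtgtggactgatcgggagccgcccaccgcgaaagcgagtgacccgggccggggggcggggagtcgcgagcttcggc
Tfpi2: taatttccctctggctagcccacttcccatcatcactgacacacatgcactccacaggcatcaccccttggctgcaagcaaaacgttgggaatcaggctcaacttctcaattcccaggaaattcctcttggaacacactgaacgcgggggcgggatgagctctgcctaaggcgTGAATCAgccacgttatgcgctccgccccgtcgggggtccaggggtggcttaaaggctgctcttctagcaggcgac
F2r: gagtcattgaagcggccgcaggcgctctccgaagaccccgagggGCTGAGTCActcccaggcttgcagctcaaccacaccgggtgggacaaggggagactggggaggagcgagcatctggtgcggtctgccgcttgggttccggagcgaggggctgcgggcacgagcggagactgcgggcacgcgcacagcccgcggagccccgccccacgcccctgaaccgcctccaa

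Positions are counted from the start site of the RefSeq promoter entry. The AP-1 letters began 154 bases before it in Procr, 146 and 135 in F3, 77 in Tfpi2 and 204 in F2r. For Procr that start site is 155751217, which lies inside the gene as placed above. The Procr letters are thus nearer to the first annotated exon, where the printed sequence ends, than this count says. Of 32851 RefSeq promoters of 250 bases before the start site, 6.75% hold these letters. The ARE letters overlap the AP-1 match in Procr and, on the opposite strand, in F2r, and 10.2% of promoters hold them. Tfpi has 2 promoter windows and Tfpi2 has 3. A match in any of them counted for the gene, while the shares are per promoter, so the 2 are not strictly alike. The GC box GGGCGG was found in 4 of the 5 genes, F3, Tfpi, Tfpi2 and F2r, against 32.7% of promoters. GCGNGGGCG, the letters of the EGR family of transcription factors, was found in Tfpi2 (4.7% of promoters), and TATAAA in Tfpi (12.4%). Matches to the NF-kB motif (3.9% of promoters), to the interferon-stimulated response element (2.98%), and to TTCNNNGAA, the STAT site GAS (7.02%), were found in 0 of the 5 genes. A match describes the letters in the window and shows no binding, and the motifs were chosen with the levels of these genes known.

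All 7 genes passed the filter on low counts. Over all 19869 genes that passed it, edgeR called 13.3% at an adjusted p under 0.05, with 7.37% higher and 5.91% lower in DSS. By the same rule, which is given here only as a count because it chose the set, 2 of the 7 were higher (Procr and Thbd), 2 were lower (Tfpi2 and F2rl1) and 3 were not called (F3, Tfpi and F2r). The DSS and control libraries did not overlap in those 4 genes and overlapped in F3, Tfpi and F2r. Groups also did not overlap in genes that were not called, such as Ano6 and Fcgrt. The share of all genes without overlap was not counted. Whether the separation is a trait of the set thus cannot be told. With the mouse as a block, where edgeR called 25% of all genes, the counts were also 2, 2 and 3.

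**Figure D1:**
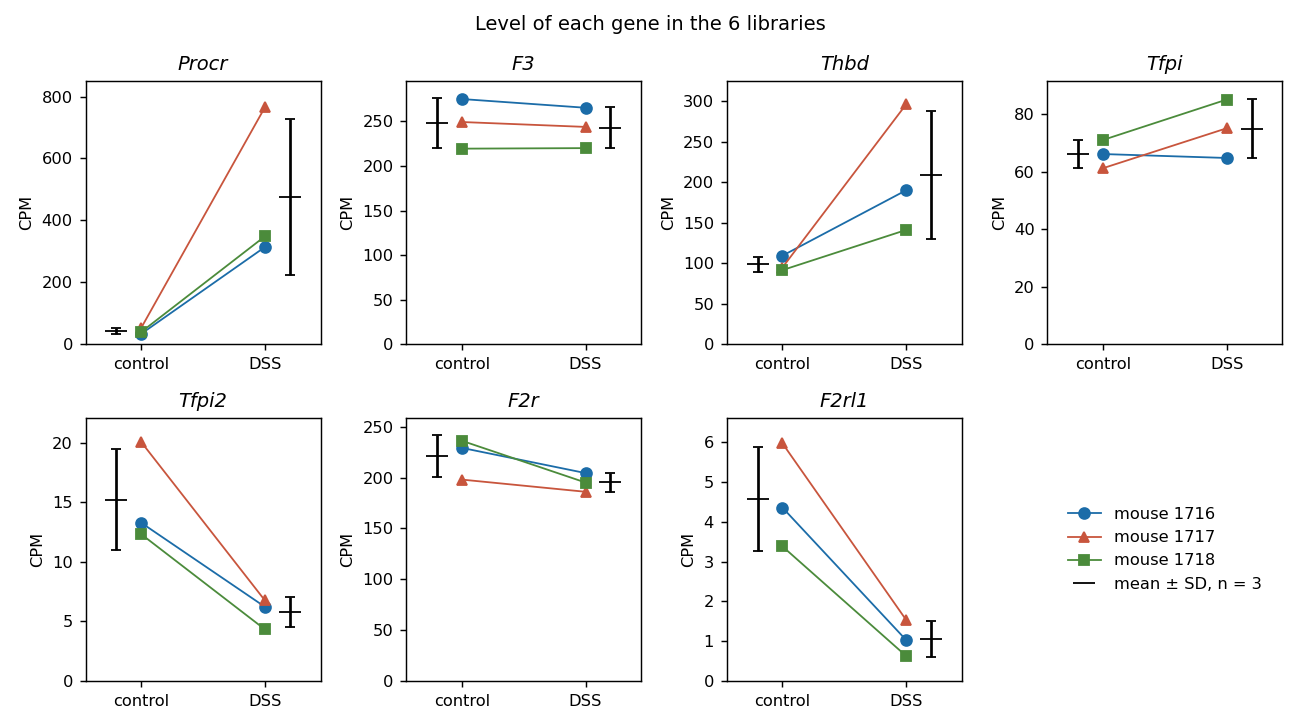
Level (CPM, linear axis from 0) of the 7 genes in the control and DSS libraries, with lines joining the libraries of 1 mouse and black bars for the mean ± SD of n = 3. Procr and Thbd are higher in DSS in each mouse with mouse 1717 at the top, Tfpi2 and F2rl1 are lower in each mouse, and the groups of F3, Tfpi and F2r overlap.

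The receptors of the protein C arm were both higher in DSS. Procr, whose product binds protein C on the outer face of the membrane and has the fold of CD1 proteins, was at 33.5, 52.7 and 39.5 CPM in the control cultures of mice 1716, 1717 and 1718. In DSS it was at 313.9, 765.3 and 348.5 CPM. The lowest DSS library thus lay far above the highest control library, and mouse 1717 was the highest in both groups. The means were 41.9 ± 9.83 CPM in control against 475.9 ± 251 CPM in DSS (SD, n = 3), a ratio of 11.4. The log2 fold change was 3.51 ± 0.38 (SE), and within the mice the DSS library was 9.37, 14.5 and 8.82 times its control. Without mouse 1717 the log2 fold change was 3.18.

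Thbd encodes thrombomodulin, the thrombin-binding partner that turns thrombin from a clotting to an anticlotting protease. Its levels were 109.3, 94.7 and 91.5 CPM in control and 190.1, 296.2 and 141.1 CPM in DSS, mice again ordered by number. Each DSS library lay above all 3 control libraries, and mouse 1717 again had the highest DSS level. The means were 98.5 ± 9.47 and 209.1 ± 79.3 CPM, with a log2 fold change of 1.09 ± 0.25. Within mice the ratio was 1.74, 3.13 and 1.54, so mouse 1717 had the largest ratio for Thbd as for Procr.

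Protein C itself (Proc) was at 0.0183 CPM in control against 0.0190 CPM in DSS, below the filter. Its cofactor protein S (Pros1) was at 93 ± 11.4 and 95.1 ± 20.1 CPM (log2 fold change 0.03 ± 0.16, edgeR adjusted p = 0.919). Both receptors are classic genes of vessel endothelium. Of the 14 endothelial markers 1 rose and 1 fell. Esam, an adhesion molecule of endothelial junctions, rose from 3.07 ± 1.11 to 10.3 ± 2.59 CPM (edgeR adjusted p = 0.00802, and 0.055 without mouse 1716). Erg, an endothelial transcription factor, fell from 1.5 ± 0.32 to 0.607 ± 0.21 CPM (edgeR adjusted p = 0.0321). The Erg call was lost without control 1716 or 1717, DSS 1716 or 1718, or any 1 mouse (edgeR adjusted p = 0.0842 to 0.182). Markers that did not pass lay on either side, with Vwf at 4.40 CPM in control against 5.82 CPM in DSS, Cdh5 at 4.17 against 2.73 CPM and Pecam1 at 4.66 against 2.77 CPM. Pecam1 fell with the mouse as a block (edgeR adjusted p = 0.0129). Lymphatic endothelial markers summed to 9.80 to 10.7 CPM in control and 15.5 to 20 CPM in DSS, and 2 rose. Among the 10 macrophage markers Lyz2, Itgam, C1qa and C1qb fell, with Lyz2 at 1359 CPM in control against 710.6 CPM in DSS. Cd68 was the 1 that rose, from 26.0 to 42.5 CPM. Of those that did not pass, Adgre1 had a higher mean in DSS, at 80.2 and 97.2 CPM (edgeR adjusted p = 0.442). The means of Csf1r, Ptprc, Cd14 and Mrc1 were lower in DSS. The part of these cells in the levels of Procr and Thbd was not tested.

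Tissue factor and its main inhibitor lay close to control. F3 stood at 275.2, 249.4 and 219.5 CPM in control and 265.4, 243.9 and 220.1 CPM in DSS. The mice kept the same order in both groups, 1716 above 1717 above 1718, and the difference within a mouse was at most 0.05 on the log2 scale in either direction. The log2 fold change was -0.03 ± 0.11. Tfpi, whose product blocks the complex of tissue factor and factor VII, was at 66.1, 61.2 and 71 CPM in control and 64.8, 75.1 and 85.1 CPM in DSS. The groups overlapped, because mouse 1716 had nearly equal levels, and the log2 fold change was 0.18 ± 0.11.

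Tfpi2, a relative of Tfpi that is secreted into matrix and blocks plasmin and other proteases, was lower in DSS. It stood at 13.3, 20.1 and 12.3 CPM in control and 6.22, 6.75 and 4.33 CPM in DSS. The highest DSS library lay below the lowest control library, and in both groups mouse 1717 was highest and mouse 1718 lowest. The means were 15.2 ± 4.22 and 5.77 ± 1.28 CPM, and the log2 fold change was -1.40 ± 0.24. These levels rest on 215 to 366 estimated counts per control library and 76 to 119 per DSS library.

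The 2 protease-activated receptors, G protein-coupled receptors that carry their own ligand and expose it when cut, differed in level and in the size of the difference between the groups. F2r, the thrombin receptor PAR1, was at 229.2, 198 and 236.2 CPM in control and 204.4, 186 and 195.1 CPM in DSS. It was somewhat lower in DSS in each mouse, but the groups overlapped, since the lowest control library lay below the highest DSS library. Its log2 fold change was -0.18 ± 0.09. F2rl1, the receptor PAR2 that trypsin-like proteases cut, was at 4.36, 5.97 and 3.38 CPM in control and 1.03, 1.53 and 0.626 CPM in DSS. Its groups did not overlap, and in both of them mouse 1717 was highest and mouse 1718 lowest, the order also seen for Tfpi2. Its log2 fold change was -2.10 ± 0.34, and the mean in control was 4.31 times that in DSS. F2rl1 rests on the fewest counts of the set, 59.4 to 109 estimated counts per control library and 11.2 to 26.8 per DSS library.

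PAR2 is a well-known receptor of gut epithelium. The epithelial markers summed to 12.6 to 17.5 CPM in control and 4.67 to 7.04 CPM in DSS. Of these Muc2 fell from 9.17 to 2.12 CPM and Krt19 from 2.51 to 0.815 CPM. Vil1 and Krt8, below the filter, were higher in DSS without overlap, at 0.268 against 0.569 CPM and 0.0543 against 0.152 CPM. The groups of the other markers overlapped, Epcam was close to 0 in both groups and Cdx1 was at 0 in all 6 libraries. The part of epithelial cells in the level of F2rl1 was not tested.

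Levels were compared between genes as CPM per kb of transcript, since longer transcripts give more counts. In control the order was F3 at 132.5 ± 14.9, F2r at 66.3 ± 6.09, Thbd at 26.4 ± 2.54, Procr at 26.2 ± 6.16, Tfpi at 18.5 ± 1.37, Tfpi2 at 9.95 ± 2.75 and F2rl1 at 1.67 ± 0.48 CPM per kb. Thbd and Procr overlapped there, and the other neighbours in the order did not. In DSS Procr stood first at 298 ± 157 CPM per kb, with its lowest library at 196.6 above the highest F3 library at 141.8. F3 followed at 129.9 ± 12.1, F2r at 58.5 ± 2.77, Thbd at 56.2 ± 21.3, Tfpi at 21 ± 2.84, Tfpi2 at 3.77 ± 0.83 and F2rl1 at 0.387 ± 0.17 CPM per kb. F2r and Thbd overlapped in DSS, with Thbd at 37.9 to 79.6 CPM per kb around the F2r range of 55.7 to 61.3. The lengths are those of 1 transcript per gene, and the Tfpi transcript used held 11.8 to 19.5% of the counts of Tfpi, so its place is the least certain.

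**Figure D2:**
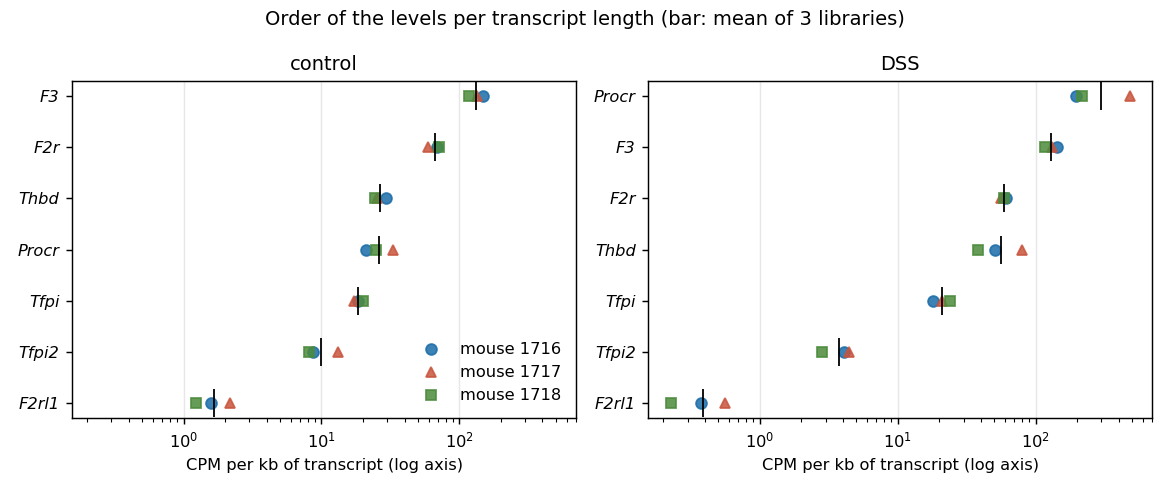
Level per transcript length (CPM per kb, log axis) of the 7 genes in the 3 control libraries (left) and the 3 DSS libraries (right), sorted by the mean, which a vertical bar marks. Procr overlaps Thbd in control and stands first in DSS, while F2rl1 is last in both groups.

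Most of the counts of each gene came from 1 transcript, except in Tfpi. F3, Thbd, F2r and F2rl1 have 1 listed transcript each. Procr has 2, of which the main one held 91.5 to 93.8% of the counts in control and 95.6 to 96.1% in DSS, so the share of the minor one was smaller in every DSS library than in any control library. Tfpi2 has 6 listed transcripts, and 1 of them held 98 to 100% of its counts. Tfpi has 11, of which 7 held more than 10 counts in every library and the leading one held 26.3 to 35.4%. The shares of transcripts are estimates of kallisto that depend on few distinguishing reads, and no test was made of them.

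The other genes looked at, 104 in 9 lists, mostly did not pass the test. Most lists hold genes of clotting control. The lists of proteins with a Kunitz domain and of those with the fold of CD1 and MHC class I were made by fold, whatever the role in clotting. All lists count in the totals. Of the 104 genes, 86 passed the filter. Of these, 8 rose and 13 fell by edgeR at an adjusted p under 0.05, or 24.4% against 13.3% of all genes, and 65 did not pass. The median log2 fold change of these genes was -0.04, against 0.01 over all genes tested. The share of all genes was 7.37% for rises and 5.91% for falls. With the mouse as a block 14 rose and 25 fell, or 45.3% against 25% of all genes. The lists were chosen with earlier results of these data known, so these shares describe the lists and are no test of them.

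**Figure D3:**
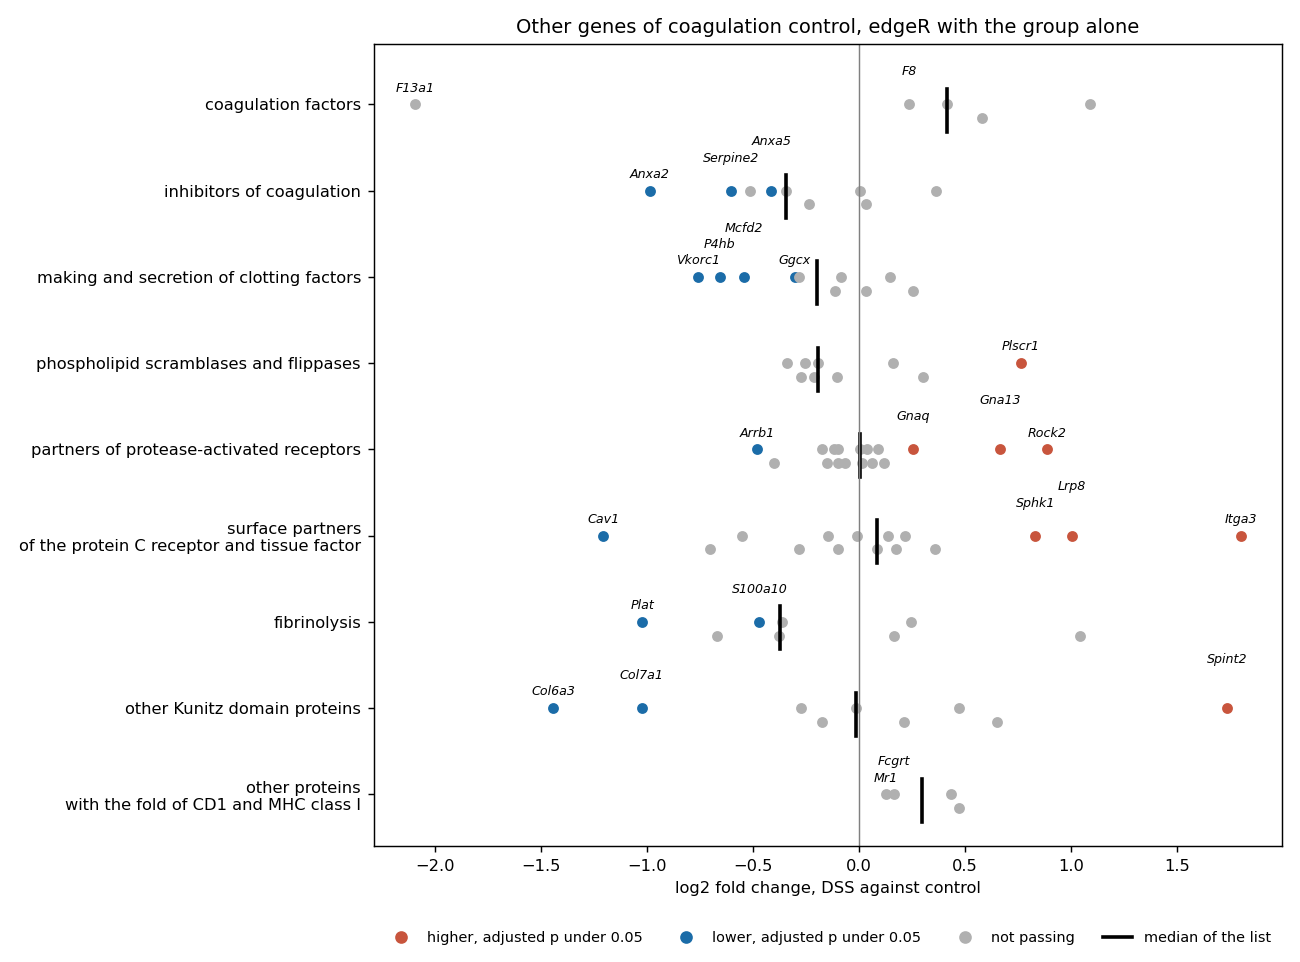
Log2 fold change of DSS against control of the 86 tested genes of the 9 lists, 1 row per list, with red for higher and blue for lower at an edgeR adjusted p under 0.05, grey for genes that did not pass, and a black bar at the list's median. Genes that fell lead the rows of inhibitors and of making and secretion of clotting factors, and the largest rise is that of Itga3.

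The proteins that clotting consumes were little expressed. Of 15 coagulation factors 5 passed the filter, and 0 passed the test in either direction (median 0.41). The factors with the highest level were F8, which encodes factor VIII and was at 4.45 ± 0.74 CPM in control against 5.23 ± 0.82 CPM in DSS (edgeR adjusted p = 0.444), and F13a1, a fibrin cross-linker. F13a1 stood at 6.37 ± 6.34 CPM in control against 1.5 ± 1.43 CPM in DSS, with edgeR adjusted p = 0.19, and it fell with the mouse as a block (edgeR adjusted p = 0.00023). Fga, a chain of fibrinogen, was listed at 0 in all libraries.

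Of 9 tested inhibitors of coagulation 3 fell and 0 rose (median -0.34). Anxa2, a phospholipid-binding annexin that also holds plasminogen activator at the surface, fell from 351.1 ± 57 to 177.1 ± 18.6 CPM (edgeR adjusted p = 0.00444). Anxa5, which covers the phosphatidylserine that clotting needs, fell from 199.5 ± 2.29 to 149.6 ± 8.03 CPM (edgeR adjusted p = 0.00767). Serpine2, an inhibitor of thrombin made by fibroblasts, fell from 240 ± 11.1 to 157.9 ± 32.7 CPM (edgeR adjusted p = 0.0284).

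Of 10 genes for making and secreting clotting factors 4 fell and 0 rose (median -0.20). Vkorc1, the enzyme that recycles vitamin K, fell by 0.76 ± 0.10 on the log2 scale (edgeR adjusted p = 0.00427), and Ggcx, the carboxylase that uses it, fell by 0.30 ± 0.08 (edgeR adjusted p = 0.0375). Mcfd2, which ships factors V and VIII out of the endoplasmic reticulum, fell from 109.8 ± 11.3 to 75.3 ± 1.56 CPM. P4hb, a disulfide isomerase, fell from 793.2 ± 104 to 502.7 ± 27.9 CPM. These genes also serve many other secreted proteins.

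Among 9 phospholipid scramblases and flippases, the proteins that move phosphatidylserine across the membrane, 1 rose and 0 fell (median -0.20). The one that rose was Plscr1, from 13.3 ± 0.73 to 22.5 ± 3.82 CPM (edgeR adjusted p = 0.0104). Ano6, the scramblase that platelets need, had an edgeR adjusted p of 0.0693 and fell with the block. With the mouse as a block 2 rose and 4 fell.

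Of 17 partners of the protease-activated receptors 3 rose and 1 fell (median 0.00). Gna13 and Gnaq, G protein subunits that these receptors use, rose by 0.66 ± 0.11 and 0.25 ± 0.06 on the log2 scale (edgeR adjusted p = 0.0104 and 0.0308). Rock2, a kinase that acts on the actin and myosin cytoskeleton, rose from 493.4 ± 48.2 to 910.7 ± 82.6 CPM (edgeR adjusted p = 0.00289). Arrb1, an arrestin that ends receptor signals, fell from 74.8 ± 7.60 to 53.5 ± 7.97 CPM (edgeR adjusted p = 0.0423). The further receptors of the family, F2rl2 and F2rl3, were at 2.82 ± 1.01 and 2.20 ± 0.84 CPM in control and 2.92 ± 0.43 and 1.67 ± 0.16 CPM in DSS, and neither passed.

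Among 15 surface partners of the protein C receptor and tissue factor 3 rose and 1 fell (median 0.08). Itga3, an integrin chain, was at 13.9, 13.2 and 13 CPM in the control cultures of mice 1716, 1717 and 1718 and at 41.9, 44.6 and 53.4 CPM in DSS. It rose by 1.80 ± 0.11 on the log2 scale (edgeR adjusted p = 0.000438), with groups far apart and little spread between mice. Cav1, the coat protein of caveolae, membrane pits in which the protein C receptor is found, was at 51, 41.3 and 47.1 CPM in control and 21.1, 19.8 and 19.4 CPM in DSS. It fell by 1.21 ± 0.10 (edgeR adjusted p = 0.000841). Lrp8, a lipoprotein receptor that binds activated protein C, rose from 15.6 ± 0.57 to 31.3 ± 4.24 CPM (edgeR adjusted p = 0.00216). Sphk1, the kinase that makes sphingosine 1-phosphate, rose by 0.83 ± 0.13 (edgeR adjusted p = 0.00843).

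Of 8 tested genes of fibrinolysis, the removal of fibrin, 2 fell and 0 rose (median -0.37). Plat, tissue plasminogen activator, fell from 57.7 ± 4.61 to 28.4 ± 9.01 CPM (edgeR adjusted p = 0.0228), and S100a10, the partner of Anxa2, fell by 0.47 ± 0.09 (edgeR adjusted p = 0.0149). Plau, urokinase, was at 280.2, 167.7 and 118.5 CPM in control and 576.1, 392 and 199.7 CPM in DSS. Its groups overlapped, while the DSS library lay above the control library in each mouse. It did not pass with the group alone (edgeR adjusted p = 0.152) and rose with the mouse as a block (edgeR adjusted p = 0.000385). With the block 2 genes of this list rose and 4 fell.

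Among 9 other tested proteins with a Kunitz domain, the fold of Tfpi and Tfpi2 that plugs a protease, 1 rose and 2 fell (median -0.02). Col6a3 and Col7a1, collagens with such a domain at their end, fell by 1.44 ± 0.16 and 1.03 ± 0.17 on the log2 scale (edgeR adjusted p = 0.00216 and 0.00939). Spint2, an inhibitor of membrane serine proteases, rose from 0.668 ± 0.13 to 2.24 ± 0.65 CPM (edgeR adjusted p = 0.0103), a low level. Of 4 tested proteins that share the fold of the protein C receptor with CD1 and MHC class I, 0 passed the test (median 0.30). Fcgrt was at 53.7 CPM in control against 60 CPM in DSS (edgeR adjusted p = 0.141), and Mr1 at 27.7 and 30.2 CPM (edgeR adjusted p = 0.524).

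Of the 21 list genes that passed, 4 passed in all 9 fits without 1 library or 1 mouse: Itga3, Cav1, Lrp8 and Col6a3. Without DSS 1716 the calls of Gnaq and Serpine2 were lost (edgeR adjusted p = 0.0512 to 0.0726), and without DSS 1717 those of Arrb1, Ggcx and Gnaq (0.0682 to 0.114). Without DSS 1718 the calls of Arrb1, Ggcx, Gnaq and Serpine2 were lost (0.0722 to 0.0974), and without control 1716 those of Arrb1, Gnaq, Plat and Serpine2 (0.0698 to 0.118). Without control 1717 the calls of 7 genes were lost, those of Arrb1, Ggcx, Gnaq, Plat, Plscr1, S100a10 and Serpine2 (0.0506 to 0.129), which left 8 falls. Without control 1718 the calls of Ggcx, Gnaq, Plat, S100a10 and Serpine2 were lost (0.0518 to 0.121), and without mouse 1716 those of Arrb1, Gnaq, Plat, Serpine2 and Sphk1 (0.0521 to 0.141). Without mouse 1717, 15 calls were lost (0.0507 to 0.282) and without mouse 1718, 14 (0.0517 to 0.213), which left 3 rises and 3 falls, and 4 rises and 3 falls. Those fits held 4 libraries and took no account of the pairing.

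The nearest protein-coding genes on either side of the 7 were looked at in turn, 12 genes that are not of the set, of which 9 passed the filter. Of these 2 rose and 0 fell. Edem2, 21.6 kb before Procr and involved in the disposal of misfolded proteins, rose from 29.6 ± 3.42 to 46.3 ± 6.74 CPM and by 0.65 ± 0.13 on the log2 scale (edgeR adjusted p = 0.0156). Without control 1716, control 1718 or mouse 1718 its edgeR adjusted p was 0.0577, 0.0607 and 0.116. Mmp24, 19.9 kb on the other side of Procr, had means of 2.20 and 1.82 CPM, with an edgeR adjusted p of 0.42. Abcd3, a peroxisomal transporter 23.9 kb from F3, rose by 0.26 ± 0.07, with an edgeR adjusted p of 0.0455. That p was 0.0819 with no filter on low counts, 0.0566 with the size factors of DESeq2, 0.103 by DESeq2, and 0.0575 to 0.284 in 8 of the 9 fits that left out data, all but the one without DSS 1716.

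Cd93, a receptor gene 28.5 kb from Thbd, was at 115.4, 139 and 98.3 CPM in control and 75.8, 99.7 and 46.1 CPM in DSS. Its groups overlapped and its log2 fold change of -0.67 ± 0.26 went the other way from Thbd (edgeR adjusted p = 0.14), and with the mouse as a block it fell (edgeR adjusted p = 0.00355). Calcrl, 7.4 kb from Tfpi, was at 14.3 CPM in control against 23.7 CPM in DSS (edgeR adjusted p = 0.13, and 0.0025 with the block). Iqgap2, 8.7 kb from F2r, was at 6.14 CPM in control against 3.34 CPM in DSS (edgeR adjusted p = 0.0842, and 0.0267 with the block). Sstr4, 7.7 kb from Thbd on the other side, was at 0.741 CPM in control against 1.54 CPM in DSS. Its log2 fold change of 1.05 ± 0.30 was close to that of Thbd. Sstr4 and Ctnnd1 also did not pass with the group alone (0.0594 and 0.0777) and rose with the block, and Gngt1 did not pass with the group alone (0.144). With the block 5 neighbours rose and 2 fell.

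**Figure D4:**
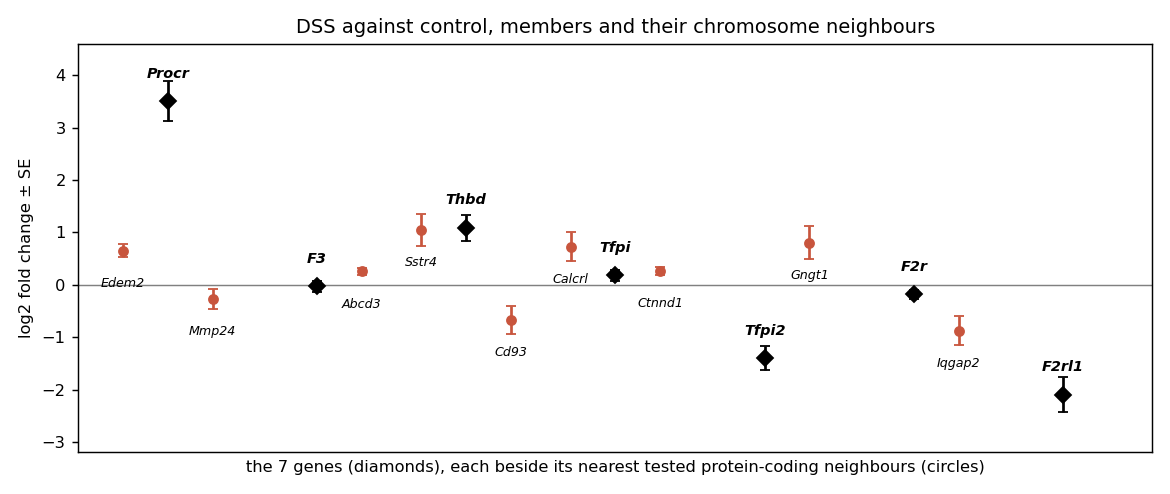
Log2 fold change of DSS against control with its SE for the 7 genes (black diamonds) and for the nearest tested protein-coding genes on the same chromosome (red circles), grouped by the gene they flank. The neighbours lie between -0.87 and 1.05. Procr at 3.51, Tfpi2 at -1.40 and F2rl1 at -2.10 lie outside that range, and the 7 genes were chosen on this contrast. Thbd at 1.09 ± 0.25 lies close to its neighbour Sstr4 at 1.05 ± 0.30.

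The genes most like each of the 7 over the 6 libraries were found by Pearson's r of log2 CPM among 11328 genes of at least 5 CPM (11329 for F2rl1). The r describes libraries that share groups and mice, and with 6 points many genes come close to 1. It compares the shape of a pattern and takes no account of the size of a change. For Procr they were Abhd17c, Atp6v1c1 and Ctsz (r = 0.999, 0.999 and 0.998), and 459 genes had r above 0.95. The log2 fold changes of these 3 were 1.07, 0.21 and 0.47, against 3.51 for Procr. For Thbd they were Fbxo38, Atg14 and Zfp874a (r = 0.996 to 0.991), with 69 genes above 0.95. Fbxo38 had a log2 fold change of 0.20, against 1.09 for Thbd. Those of F3 were Ets1, Lrrc3 and Epha5 (r = 0.995 to 0.993), and those of Tfpi were Xrcc5, Aff2 and Usp3 (r = 0.993 to 0.990). For Tfpi2 Gucy1a2, Wrnip1 and Cxxc5 came first (r = 0.996), and 215 genes had r above 0.95. The nearest to F2r were Gcc2, Ubap1l and Cenpo (r = 0.996 to 0.984), and those to F2rl1 were Zfp395, Ddah1 and Stk17b (r = 0.998), with 37 and 234 genes above 0.95. The counts above 0.95 were larger for Procr, F2rl1 and Tfpi2 than for F3 and Tfpi, which had 95 and 51.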

How the data were processed

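RNA was extracted from 6 fibroblast cultures, depleted of ribosomal RNA and sequenced as directional libraries, per the labels' protocols. The authors deposited estimated counts per transcript with no scaling. They came from kallisto, with GRCm38 and mm10 named as builds, per the submitters' processing notes, and the sources used here give no version or settings. Of 120299 transcripts, counts were summed by gene symbol (38896 genes) and rounded. Between 84.5 and 84.8% of values above 0 were not whole (tolerance 1e-06), and kallisto can divide reads of similar transcripts wrongly.

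Genes were kept by filterByExpr (at least 10 counts, and 15 in total), given TMM factors, and tested for the group by the quasi-likelihood method of edgeR. Adjustment was by Benjamini-Hochberg across all 19869 genes, at 0.05. The SE is the size of the log2 fold change over the square root of F. Alternatives were library size or DESeq2 factors, no filter, DESeq2, limma-voom, the mouse as a block, and each library or mouse left out. Tests used DESeq2 1.42.0, edgeR 4.0.16 and limma 3.58.1 in R 4.3.3, and tables and figures used matplotlib 3.10.9, numpy 2.4.6 and pandas 2.3.3 in Python 3.11.15. The fits were tested on simulated data. Lengths and exons came from GENCODE M21, positions and promoters from RefSeq.

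Libraries pair by mouse, per their titles. Deviations from the group means of the 2 libraries of a mouse correlated across genes with r = 0.35, 0.21 and 0.46, against -0.36 to 0.02 between mice. Chi-square over degrees of freedom was 8.77 to 19.8 between replicates, above counting noise. P-values with the group alone set the difference against the spread between cultures of a group, which includes that between mice, and ignore the pairing. Those with the mouse as a block set it against the spread of the differences within mice. Both rest on these cultures of 3 mice.

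The 7 genes and all lists were chosen with earlier results of these data known. Named were all 7 genes, up to 4 list genes with the smallest p (or, where 0 passed, the 2 with the highest level), the 3 most similar genes per member, passing over predicted genes, and the chromosome neighbours. Thus a gene of a list that is named beyond this rule (Pros1, Proc, Fga, Ano6, F2rl2, F2rl3, Plau) was chosen after its values were seen. Some results are not reported here.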

Additional observations from a re-analysis of the deposited data

How the results depend on the processing

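The log2 fold changes of the 7 genes kept their direction in every alternative run but for F3, which lay near 0, from -0.11 to 0.05. Procr ranged from 2.98 to 3.73, Thbd from 0.72 to 1.30, Tfpi from 0.08 to 0.28, Tfpi2 from -1.55 to -1.15, F2r from -0.26 to -0.13 and F2rl1 from -2.46 to -1.83. With the mouse as a replicate block, which uses the pairing, 2447 genes of all tested were higher and 2518 lower, against 1465 and 1174 with the group alone. Of the list genes 14 rose and 25 fell, against 8 and 13. In fits that left out 1 library or 1 mouse, 378 to 1310 genes were higher and 185 to 1108 lower, and 3 to 8 list genes rose and 3 to 12 fell. The other scalings, the other tools and the fit with no filter kept each of these 4 counts within 1.5 times. Arrb1 lost its call with library size alone (edgeR adjusted p = 0.052), and Ggcx and Gnaq lost theirs with no filter on low counts (0.0535 and 0.0537). The cause was not tested. The median of all genes moved between 0.00 and 0.03. Depth limits F2rl1 most, at 11.2 to 26.8 counts per DSS library.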
